A study of Mus musculus with 4 samples.

Results

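The gamma crystallins are a family of small structural proteins best known from the fibre cells of the lens, and RNA for them was present in dissected mouse retina at E13.5 (E, embryonic day). The 7 genes described here, Cryga, Crygb, Crygc, Crygd, Cryge, Crygn and Crygs, were taken by symbol from the 25239 gene IDs of the expression tables. They were selected on earlier results of these same libraries, in which gamma crystallin levels differed between the groups, so their difference is given as a description, without a test. The 4 libraries were made from poly(A)-selected retinal RNA, 2 labelled control and 2 labelled Isl1 cKO (Isl1cKO here), all of stage E13.5, and the series compared them to see what the loss of Isl1 does to the transcriptome. The LIM-homeodomain transcription factor Isl1 is made by developing retinal ganglion cells and some other retinal neurons. The labels give "control" as a genotype with no alleles, and the alleles of the knockout, the Cre line and the promoter that drives it are not given in the sources used here. Whether a library came from 1 embryo or from several, and whether the groups were littermates, is not given either. Differences below are therefore judged against the spread between these samples, which may be technical.

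Isl1 itself stood at 242 and 201 TPM in the control libraries (TPM corrects a level for the length of the transcript and expresses it against the same total in every library), and at 321 and 223 TPM in the Isl1cKO libraries. Pairs of values here and below give replicate 1 and then replicate 2 of a group. The transcript of the targeted gene was not lower in the libraries labelled Isl1cKO (log2 difference 0.28, SE 0.21, adjusted p = 0.683, limma with Benjamini-Hochberg adjustment), and since the deleted part of the gene is not given here, this does not check the labels. Directions below are accordingly those between the libraries as labelled. The retinal identity of the tissue was plain in every library: 12 of 12 retinal marker genes passed the filter on low values, with summed levels of 2739 and 3013 TPM in control and 2765 and 3280 TPM in Isl1cKO. Each library held between 12.6 and 14.3 gigabases of aligned sequence, as worked out from its coverage and FPKM columns.

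Beta and gamma crystallins share a compact fold built from Greek key motifs, and together with the alpha crystallins, which are small heat shock proteins, they make up most of the soluble protein of the lens. Gamma crystallins are packed at high concentration in elongating lens fibre cells, and their genes are switched on as those cells differentiate under the control of factors such as Maf, Sox1 and Prox1. Crystallin RNA has also been detected in retina, where its role is less well understood. Dissected embryonic retina lies against the lens, and the pigment epithelium, blood vessels and periocular mesenchyme lie close by.

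Of the 7 genes, 5 formed a tight cluster on chromosome 1, all on the minus strand. In the deposited coordinates, which follow mouse build mm10, the cluster ran from 65048557 to 65103363, a span of 54.8 kb, with Cryge, Crygd, Crygc, Crygb and Cryga in that order. Cryge occupied 65048557 to 65051163, Crygd 65061838 to 65063440, Crygc 65071525 to 65073532, Crygb 65080222 to 65082290 and Cryga 65100389 to 65103363. The gaps between neighbours were 10.7, 8.09, 6.69 and 18.1 kb, and the tables listed 0 other gene IDs inside the span. Crygn lay on chromosome 5 (24751002 to 24757848, minus strand) and Crygs on chromosome 16 (22805203 to 22811410, minus strand). In RefSeq for GRCm38.p6, 6 of the 7 genes had the same start and end as in the tables, Cryge being the exception. A sixth gene of the clustered type, Crygf, lay 823 kb beyond Cryga on the plus strand and is described with the other crystallins.

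The stretch of 100 bases just before the RefSeq start site of each gene (GRCm38.p6) is printed 5′ to 3′ on the gene's own strand, because it shows how far the clustered genes resemble one another where transcription begins and how Crygn and Crygs differ from them. Capitals mark TATATA and TTTGTG, the longest runs that all 5 clustered genes share in these 100 bases, and TATAAA in Crygs.
Cryga (chr1:65103364-65103463, minus strand): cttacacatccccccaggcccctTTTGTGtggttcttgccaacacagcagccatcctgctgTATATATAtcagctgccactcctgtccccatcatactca
Crygb (chr1:65082291-65082390, minus strand): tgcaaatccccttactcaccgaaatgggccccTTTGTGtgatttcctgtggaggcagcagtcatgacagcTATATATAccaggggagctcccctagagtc
Crygc (chr1:65073533-65073632, minus strand): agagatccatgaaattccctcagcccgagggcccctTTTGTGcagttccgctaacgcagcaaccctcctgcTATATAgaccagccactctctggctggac
Crygd (chr1:65063441-65063540, minus strand): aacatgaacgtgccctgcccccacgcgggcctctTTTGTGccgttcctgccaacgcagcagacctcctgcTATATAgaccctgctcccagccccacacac
Cryge (chr1:65051164-65051263, minus strand): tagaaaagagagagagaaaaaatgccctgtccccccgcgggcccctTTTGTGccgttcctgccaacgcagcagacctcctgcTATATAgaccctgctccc
Crygn (chr5:24757849-24757948, minus strand): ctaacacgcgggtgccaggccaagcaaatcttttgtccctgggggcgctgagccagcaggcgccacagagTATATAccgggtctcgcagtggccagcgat
Crygs (chr16:22811411-22811510, minus strand): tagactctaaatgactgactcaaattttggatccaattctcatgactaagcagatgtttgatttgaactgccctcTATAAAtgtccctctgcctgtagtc

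All 5 clustered genes carried TATATA, an AT-rich run of the kind found in TATA boxes, with a copy between 39 and 18 bases before the start. Crygn carried it as well, 30 bases before the start. Crygs did not, and had instead TATAAA, the textbook TATA box core, 25 bases before the start. Among 32851 RefSeq promoter windows of 300 bases (250 before and 50 after the start), searched on both strands, TATATA, which was added after the sequences had been seen, was present in 5.67%, and in 1.56% within the 60 bases before the start. TATAAA was present in 13.6% of windows. The second run shared by the cluster, TTTGTG, began 77, 68, 64, 66 and 54 bases before the start in Cryga, Crygb, Crygc, Crygd and Cryge and was present in 17.7% of all windows.

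Crygd and Cryge had an identical run of 56 bases across both of these elements. Pairwise alignment of the printed stretches gave identities of 64.2% to 89.8% of ungapped positions among the clustered genes, with Crygd and Cryge the most alike. Crygn shared 46.8% to 59.0% with the clustered genes and Crygs shared 38% to 59.3%. Unrelated promoters were not aligned for comparison, so these lower values cannot be read as likeness. TGCTGA, the core of a Maf half-site, occurred in the 300-base windows of 4 of the 7 genes (Cryga, Crygc, Crygn and Crygs) and in 19.5% of all windows. AACAAT, a Sox-type site, occurred in those of Crygd and Crygs and in 10.7% of all windows. TAATTA, a homeodomain-type site, occurred in 0 of the 7 and in 5.29% of all windows. These matches describe letters in a window and say nothing of whether a factor binds there.

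Summed over the 5 clustered genes, the level was 92.4 and 106 TPM in control but 10.5 and 8.49 TPM in Isl1cKO. The control mean of 99.0 ± 9.24 TPM thus stood 10.4 times above the Isl1cKO mean of 9.48 ± 1.39 TPM (SD, n = 2 each), a log2 difference of -3.25 after adding 1 TPM to each mean. All log2 differences of gamma crystallins below are made in this way, as Isl1cKO minus control, and understate the change of low genes. For 6 of the 7 genes both control libraries lay above both Isl1cKO libraries, and Crygs was the exception. Of the 13984 genes tested, 30.0% also had both control libraries above both Isl1cKO libraries, and nothing is read from the count among genes chosen for this contrast. In RNA from whole tissue, fewer cells of a type and less RNA per cell cannot be told apart.

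**Figure D1:**
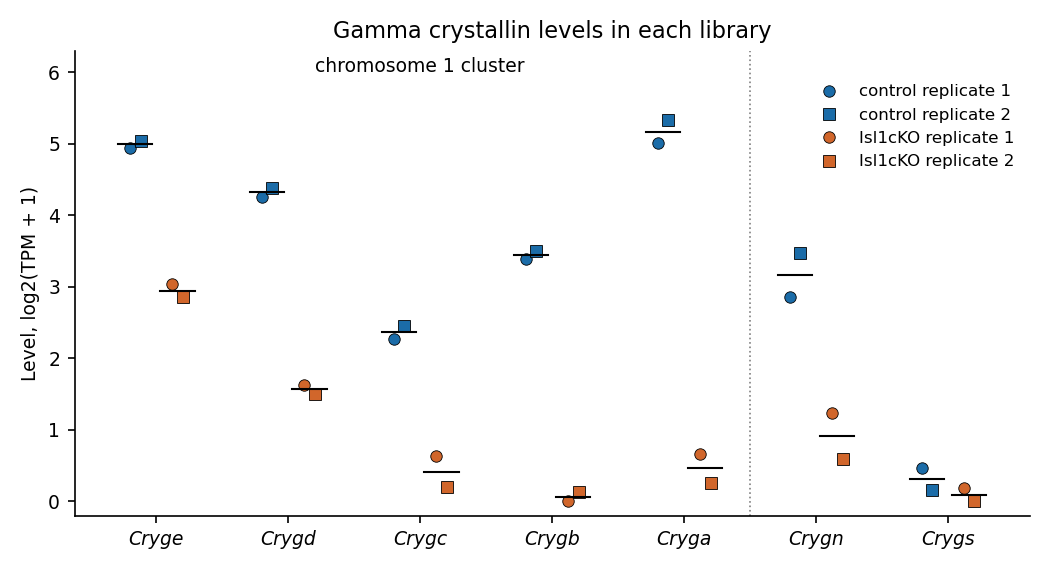
Level of each gamma crystallin as log2(TPM + 1) in the 2 control libraries (blue) and the 2 Isl1cKO libraries (orange), with a black line at the mean of each pair of points. Cryge to Cryga are in chromosome order and all lie higher in control, Cryge is highest in Isl1cKO at 7.24 and 6.23 TPM, and the groups overlap for Crygs alone.

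Cryga, an abundant gamma crystallin of lens fibres, had the highest mean of the family in control. It stood at 31.2 and 39.1 TPM in control but at 0.581 and 0.197 TPM in Isl1cKO. The groups were far apart: the Isl1cKO mean was 1.11% of the control mean (35.2 ± 5.64 against 0.389 ± 0.272 TPM, SD, n = 2 each), and the log2 difference was -4.70. Mean coverage per base was 163 and 193 in control against 3.10 and 0.976 in Isl1cKO, so the low values rest on little sequence.

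Its neighbour Crygb, another fibre cell crystallin, was lower throughout. It stood at 9.45 and 10.3 TPM in control, was listed at 0 in Isl1cKO replicate 1 and stood at 0.0899 TPM in Isl1cKO replicate 2. The control libraries differed little from each other and both lay far above the other pair, whose mean was 0.456% of the control mean. That single non-zero Isl1cKO value corresponds to about 282 aligned bases.

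Crygc, whose protein is likewise a structural component of fibre cells, had the lowest control level of the cluster. Its values were 3.84 and 4.48 TPM in control and 0.553 and 0.144 TPM in Isl1cKO. The groups did not overlap, the Isl1cKO mean was 8.38% of the control mean, and the log2 difference was -1.94. Cryga, Crygb and Crygc reached 1 TPM in the control libraries alone and so passed the filter on low values only through the group in which they are high. Of the 7 genes, 6 passed it, and Crygs did not.

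Crygd, in which mutations cause cataract in mouse and human, kept more of its level. It stood at 18.2 and 19.9 TPM in control and at 2.09 and 1.83 TPM in Isl1cKO. The 2 libraries of each group lay close together, the Isl1cKO mean was 10.3% of the control mean, and the log2 difference was -2.76.

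Cryge, at the other end of the cluster from Cryga, kept the most of the cluster. Its levels were 29.8 and 31.8 TPM in control and 7.24 and 6.23 TPM in Isl1cKO. The groups were again separate (30.8 ± 1.38 against 6.73 ± 0.714 TPM, SD, n = 2 each), but the Isl1cKO mean was 21.9% of the control mean, and the log2 difference was -2.04. Along the chromosome from Cryge to Cryga, the percentage left in Isl1cKO was 21.9, 10.3, 8.38, 0.456 and 1.11, lower at each step except the last.

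The clustered genes were therefore not lower in equal proportion, and the make-up of the cluster's RNA differed between the groups. Cryga held 33.7% and 37.1% of the cluster's summed TPM in the control libraries, and 5.55% and 2.32% in the Isl1cKO libraries. Cryge held 32.3% and 30.1% in control, and 69.2% and 73.3% in Isl1cKO. The groups did not overlap in either share, while Crygd kept a like share in all 4 libraries, 19.7% and 18.8% in control and 19.9% and 21.6% in Isl1cKO.

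The ratio of Cryge to Cryga was 0.957 and 0.812 in control and 12.5 and 31.6 in Isl1cKO. The ratio of Cryge to Crygd was steadier within each group, 1.64 and 1.60 in control and 3.47 and 3.40 in Isl1cKO. Without Cryge, the other 4 clustered genes summed to 62.6 and 73.7 TPM in control and to 3.22 and 2.27 TPM in Isl1cKO, a mean of 4.02% of control. With Cryge the sum kept 9.57%. These ratios come from the same contrast that the genes were selected on and carry no test.

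**Figure D2:**
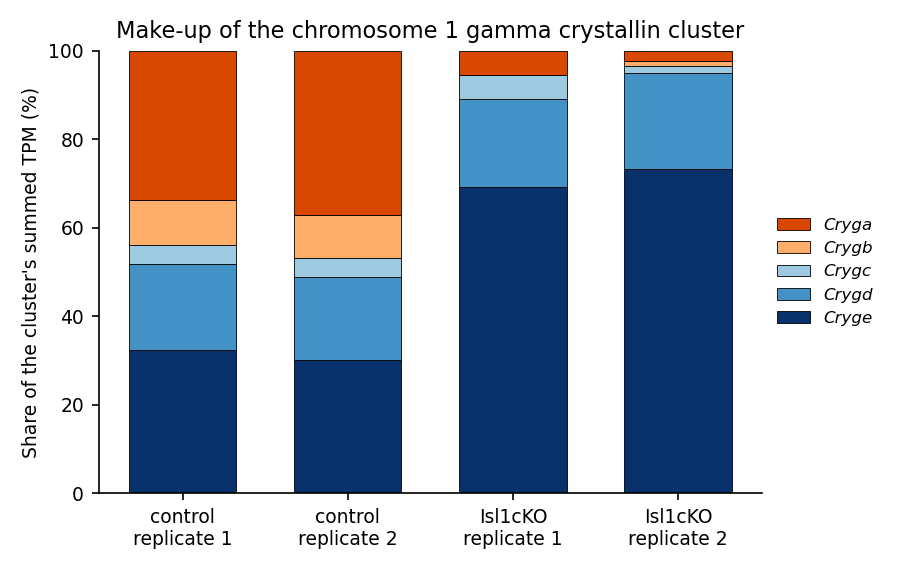
Share of the summed TPM of the chromosome 1 cluster held by each of its 5 genes, in percent, with 1 bar per library. Cryge takes 32.3% and 30.1% in the control bars and 69.2% and 73.3% in the Isl1cKO bars, and Cryga 33.7% and 37.1% against 5.55% and 2.32%.

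How reads were divided between near-identical genes bears on these shares. The coding sequences of Cryge and Crygf (GENCODE M21) were 98.1% identical, those of Crygd and Cryge 91.6%, and the other pairs within the cluster 79.9% to 84.1%. Of all stretches of 75 bases in the Cryge transcript, 42.0% occurred unchanged in the transcript of another gamma crystallin, as did 23.7% for Crygd, 26.3% for Crygb and 20.7% for Crygc. Cryga, Crygn and Crygs shared 0% of theirs. Cryga, Crygn and Crygs thus had no exact match of that length among these 8 genes, though Cryga shared a run of 70 bases with Crygb. Matches with mismatches were not counted. At 150 bases the shared part was 6.43% for Cryge, 6.68% for Crygd, 14.8% for Crygb and 11.4% for Crygc. The split of reads between Cryge, Crygd and Crygf, or between Crygb and Crygc, is uncertain.

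Sums over the genes that share sequence depend less on the split between them but are not free of it, since TPM divides by transcript length (634 bases for Crygb and 783 for Crygc). Whether reads that match several genes were kept is not given in the sources used here, and the sums would change with that too. Cryge and Crygf together gave 33.4 and 36.6 TPM in control and 7.24 and 6.23 TPM in Isl1cKO. The sum of Crygd, Cryge and Crygf was 51.6 and 56.5 TPM in control and 9.32 and 8.06 TPM in Isl1cKO, and 16.1% of the control mean was left. For Crygb and Crygc together the values were 13.3 and 14.7 TPM against 0.553 and 0.234 TPM, which left 2.81%. Of these sets the most was left for Cryge and Crygf (19.2%) and the least for Crygb and Crygc, and Cryga alone kept 1.11%.

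Crygn, on chromosome 5, is a divergent family member whose protein combines features of beta and gamma crystallins and which is also expressed in neurons outside the eye. Its transcript has 4 exons where the other 6 genes have 3, and its coding sequence was 58.0% to 62.8% identical to those of the cluster. It stood at 6.26 and 10.1 TPM in control and at 1.36 and 0.508 TPM in Isl1cKO. The groups did not overlap although both spread widely: the Isl1cKO mean was 11.4% of the control mean (8.18 ± 2.72 against 0.932 ± 0.600 TPM, SD, n = 2 each), and the log2 difference was -2.25. The percentage left lay between those of Crygd and Cryge.

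Crygs, on chromosome 16, encodes the gamma crystallin that accumulates in the lens mainly after birth. It was barely detected, at 0.379 and 0.117 TPM in control and at 0.135 TPM and a listed 0 in Isl1cKO. The groups overlapped, with Isl1cKO replicate 1 above control replicate 2, and coverage per base was 1.99 and 0.576 in control and 0.723 and 0 in Isl1cKO. A difference between the groups was not detectable at this depth.

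Ordered by mean level in control, the family ran from Cryga (35.2 TPM) through Cryge (30.8), Crygd (19.0), Crygb (9.86), Crygn (8.18) and Crygc (4.16) to Crygs (0.248). The libraries of Cryga and Cryge overlapped, as did those of Crygb and Crygn, and every other neighbour in that order was separate. In Isl1cKO the order by mean was Cryge (6.73 TPM), Crygd (1.96), Crygn (0.932), Cryga (0.389), Crygc (0.349), Crygs (0.0677) and Crygb (0.0449). There the steps from Cryge to Crygd, from Crygd to Crygn and, narrowly, from Crygc to Crygs were free of overlap, and the other 3 were not. The 7 genes together held 0.00991% and 0.0116% of the TPM total in the control libraries and 0.00119% and 0.00090% in the Isl1cKO libraries.

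The genes around the cluster stood at nearly the same level in both groups. Of the 9 nearest genes outside it apart from Crygf, 5 on the low side and 4 on the high side, 6 stood above 1 TPM in every library, from 9.98 to 323 TPM. Their log2 differences of mean TPM lay between -0.24 and 0.10. In the limma comparison of all genes, 0 of these 6 passed an adjusted p of 0.05, and 1 had an unadjusted p below 0.05. For Plekhm3, Ccnyl1, 2810408I11Rik and Idh1 both control libraries lay above both Isl1cKO libraries, and for Fzd5 and Pikfyve the groups overlapped. Control lay above in this way for 30.0% of all tested genes. Idh1, which encodes a cytosolic isocitrate dehydrogenase and lies 55.3 kb beyond Cryga, was at 323 and 302 TPM in control and at 268 and 262 TPM in Isl1cKO. Fzd5, a Wnt receptor gene 311 kb before Cryge, was at 117 and 114 TPM in control and at 116 and 131 TPM in Isl1cKO. The other 3 neighbours stayed at or below 0.218 TPM, among them D630023F18Rik, which begins 1.92 kb beyond Cryga.

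**Figure D3:**
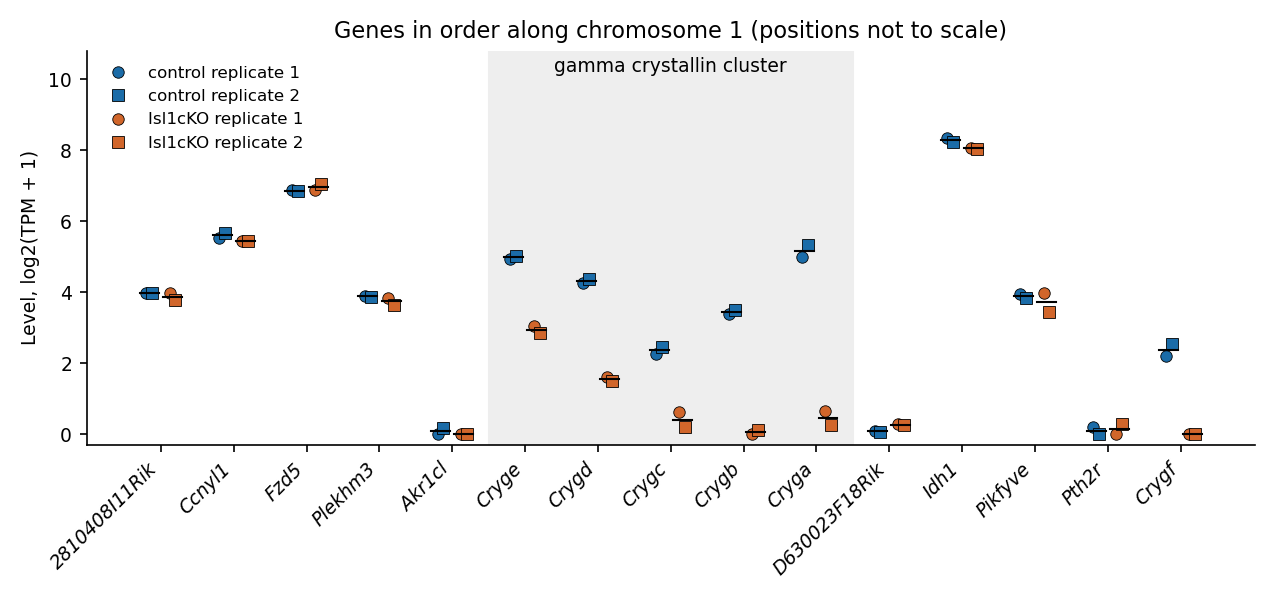
Level as log2(TPM + 1) of the 5 clustered genes (grey area) and the 5 nearest genes on each side, in order along chromosome 1 and not to scale, with control libraries in blue, Isl1cKO libraries in orange and a black line at the mean of each pair of points. The clustered genes and Crygf are lower in Isl1cKO, and the neighbours above 1 TPM differ by -0.24 to 0.10 on the log2 scale.

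The other crystallins were lower in the libraries labelled Isl1cKO too. Of 9 listed, 8 were tested and 7 passed an adjusted p of 0.05, all lower in Isl1cKO (limma on log2(TPM + 1), Benjamini-Hochberg adjustment over 13984 genes), against 0.465% of all tested genes called lower. The median log2 difference of the 8 was -3.29, beside -0.05 for all tested genes. Of these 8, 4 (Cryba1, Cryba2, Cryba4 and Crygf) reached 1 TPM only in the control libraries and so had to differ to be tested, and the list was chosen with earlier results of these data known. With 1 library left out the number called fell to 4 (without control replicate 1, without control replicate 2 or without Isl1cKO replicate 1) or to 3 (without Isl1cKO replicate 2), and when the filter was dropped it was 2.

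Cryaa, the alpha crystallin most characteristic of lens, stood at 74.1 and 88.3 TPM in control and at 1.76 and 0.291 TPM in Isl1cKO. It had the highest level of all crystallins in control and fell by 5.44 on the log2 scale (adjusted p = 0.0239, limma). Its call was lost at a pseudocount of 0.1 (adjusted p = 0.138), with no filter on low values (0.109), and without control replicate 1 (0.153) or control replicate 2 (0.145).

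Of the beta crystallins, which pack with the gamma crystallins in fibre cells, Crybb3 stood at 30.2 and 33.1 TPM in control and at 1.13 and 1.09 TPM in Isl1cKO. It was called lower (log2 difference -3.95, adjusted p = 0.0028, limma) and was so in each alternative run. Cryba4 stood at 9.15 TPM in both control libraries and at 0.442 and 0.336 TPM in Isl1cKO. Its adjusted p in limma was 0.00399, and its call was lost without control replicate 1 alone (0.0529). Cryba1, Crybb1 and Cryba2 were called as well, with log2 differences of -4.72, -3.72 and -2.81. Cryba1 lost its call without Isl1cKO replicate 2, Crybb1 without either Isl1cKO library, Cryba2 without control replicate 2 or either Isl1cKO library, and all 3 with no filter. Cryba2 also lost it at a pseudocount of 0.1. Since Cryba4, Cryba1 and Cryba2 passed the filter only through the control libraries, they had to differ to be tested. Their calls and adjusted p values therefore add little to their levels.

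Crygf, the gamma crystallin outside the cluster, stood at 3.60 and 4.85 TPM in control and was listed at 0 in both Isl1cKO libraries. Having passed the filter only through the control libraries, it had to differ to be tested, so its adjusted p of 0.0184 from limma adds little to these values, with the uncertainty that its coding sequence is 98.1% identical to that of Cryge. The call was lost without each library in turn and with no filter on low values.

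Cryab, a small heat shock protein also made widely outside the lens, was the tested crystallin that did not pass. It stood at 3.71 and 3.99 TPM in control and at 3.28 and 1.51 TPM in Isl1cKO, with an adjusted p of 0.503 from limma. Summed over the 9 listed crystallins the level was 186 and 233 TPM in control and 8.78 and 5.23 TPM in Isl1cKO, a mean of 3.34% of control. The 7 gamma crystallins summed to 99.1 and 116 TPM in control and 11.9 and 9.002 TPM in Isl1cKO, which left 9.75%. Of the TPM of these 7 and the 9 listed crystallins together, the 7 therefore made up 34.8% and 33.2% in control and 57.6% and 63.3% in Isl1cKO. Crygf is counted among the 9. Cryge accounts for most of what was left: without it the other clustered genes kept 4.02%.

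**Figure D4:**
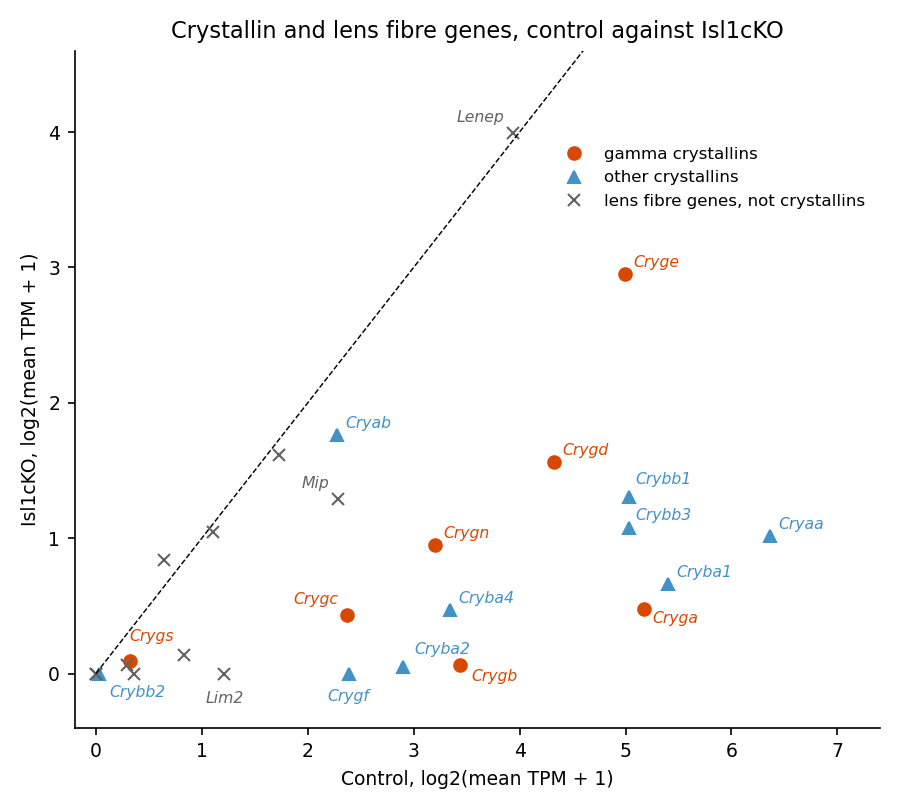
Mean level in Isl1cKO against mean level in control, each as log2(mean TPM + 1), for the 7 gamma crystallins (circles), 9 other crystallins (triangles) and 11 lens fibre genes that are not crystallins (crosses), with the line of equal levels dashed. Cryge, at 21.9% of its control mean, is the highest gamma crystallin in Isl1cKO, and Lenep, the highest of the lens fibre genes, lies close to the line.

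Genes of lens fibres other than crystallins were low in all 4 libraries. Of 11 listed, 6 were tested and 0 passed an adjusted p of 0.05 in limma, 2 of them with an unadjusted p below 0.05, and their median log2 difference was -0.11 beside -0.05 for all tested genes. Summed, they stood at 26.0 and 23.5 TPM in control and at 23.1 and 17.7 TPM in Isl1cKO. Most of that sum was Lenep, a lens epithelial gene, at 16.2 and 12.3 TPM in control and 17.0 and 12.8 TPM in Isl1cKO. Mip, the water channel of fibre cell membranes, stood at 2.95 and 4.79 TPM in control and at 1.28 and 1.60 TPM in Isl1cKO (adjusted p = 0.220, limma). Lim2, another fibre membrane protein gene, stood at 1.04 and 1.59 TPM in control and was listed at 0 in both Isl1cKO libraries (adjusted p = 0.0742, limma). Lgsn and Dnase2b were listed at 0 in all 4 libraries, and counting these, 4 of the 11 genes were listed at 0 in both Isl1cKO libraries. The part of lens tissue in the gamma crystallin difference was not tested.

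The regulators of lens crystallin genes showed no call. Of 10 listed, 7 were tested, 0 passed an adjusted p of 0.05 in limma, 1 had an unadjusted p below 0.05, and the median log2 difference was -0.13. That gene was Sox1, an activator of gamma crystallin genes in lens fibres, at 4.13 and 3.20 TPM in control and at 1.13 and 1.25 TPM in Isl1cKO (adjusted p = 0.0764, limma). Maf, the large Maf factor of fibre cells, stood at 12.4 and 9.15 TPM in control and at 6.75 and 8.54 TPM in Isl1cKO (adjusted p = 0.456, limma). Pax6, which the retina expresses on its own account, stood at 537 and 539 TPM in control and at 610 and 598 TPM in Isl1cKO, and Sox2, Six3 and Prox1 are retinal genes as well. Foxe3 and Gata3 were below the filter and were not tested. Foxe3 stood at 0.629 and 0.452 TPM in control and at 0 and 0.139 TPM in Isl1cKO. Gata3 went the other way, from 0.152 and 0.399 TPM in control to 1.47 and 0.833 TPM in Isl1cKO.

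Marker genes of other tissues at or around the retina were measured in the same libraries, and their part in the gamma crystallin difference was not tested. All 10 red blood cell genes listed were lower in both Isl1cKO libraries than in both control libraries, with summed levels of 2904 and 4170 TPM in control and 1419 and 205 TPM in Isl1cKO. Summed levels were 45.4 and 35.1 against 35.4 and 24.0 TPM for pigment epithelium, 28.6 and 21.2 against 20.5 and 15.7 TPM for periocular mesenchyme, 84.4 and 63.9 against 62.8 and 59.3 TPM for endothelium, and 26.5 and 24.4 against 23.5 and 23.2 TPM for surface ectoderm and cornea, control first in each. Both control libraries lay above both Isl1cKO libraries for 3 of 7 pigment epithelium genes, 3 of 11 periocular mesenchyme genes, 5 of 7 endothelial genes and 4 of 9 genes of surface ectoderm and cornea. Over all tested genes this order held for 30.0%, and the lists also count genes below the filter. Most of the endothelial sum was Kdr, a VEGF receptor gene, and the other 6 endothelial genes summed to 15.4 and 6.86 TPM in control and to 6.09 and 3.72 TPM in Isl1cKO, a mean of 44.1% of control. In these 5 lists, 0 genes passed an adjusted p of 0.05 in limma, with 9 of the 26 tested at an unadjusted p below 0.05, 5 of them red blood cell genes. Over all tested genes, 12.1% had an unadjusted p below 0.05.

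The genes whose profile over the 4 libraries was nearest to the mean profile of the cluster were Cryba4, Sst, Mstn, Ecel1 and Ret, at Euclidean distances of 0.165, 0.302, 0.314, 0.357 and 0.407 between centred log2(TPM + 1) values. Cryba4 is the beta crystallin described above. Sst, which encodes the neuropeptide somatostatin, stood at 60.5 and 56.8 TPM in control and at 8.51 and 5.52 TPM in Isl1cKO. Ret, which encodes a receptor tyrosine kinase for neurotrophic factors of the GDNF family, stood at 30.8 and 24.0 TPM in control and at 3.53 and 2.68 TPM in Isl1cKO. Mstn (myostatin, a secreted growth factor of the TGF-beta family) and Ecel1 (an endopeptidase-like protein of neurons) stood below 10 TPM in control. Among the clustered genes themselves, the distance to their mean profile was 0.220 for Crygd, 0.474 for Crygb, 0.926 for Cryge, 1.03 for Crygc and 1.75 for Cryga, and it was 0.842 for Crygn. Distances over 4 libraries in 2 groups mostly order genes by the size of their difference between the groups.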

How the data were processed

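The authors deposited 1 table per library, with TPM, FPKM and mean coverage per base for each gene, per the file headers. In every library the TPM column adds up to 1000000. The submitters' processing notes name Trimmomatic, FastQC, HISAT2, SAMtools, StringTie, DESeq2 and the build mm10, without versions or settings. The libraries were strand-specific, per the labels' protocols, and whether strand was used in quantification is not given in the sources used here.

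TPM were summed over rows of the same gene ID. The 13984 genes with at least 1 TPM in at least 2 libraries were fitted as log2(TPM + 1) with genotype as the only term (limma 3.58.1, R 4.3.3), with Benjamini-Hochberg adjustment and a threshold of 0.05. The code was tested on simulated data. Of these genes, 69 passed, 65 of them lower in Isl1cKO, and 1694 had an unadjusted p below 0.05. A count test did not apply, since the tables give no read counts. The deposited coverage served only to describe depth, and deposited FPKM entered an alternative. Depth in reads is unknown.

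The gamma crystallins and the gene lists were chosen with earlier results of these data known. The genes named are the family, the lists, Isl1, the 5 nearest genes on each side of the cluster and the 5 tested genes nearest to the cluster's mean profile. Promoter windows came from RefSeq and transcripts from GENCODE M21, matched by symbol (99.2% of gene IDs, 7 of 7 gamma crystallins). Pairs were aligned with Biopython 1.88.

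Alternatives were other pseudocounts, filters, scalings and units, the highest row in place of the sum, a mean-variance trend, the replicate number as a block, and leaving out each library.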

Additional observations from a re-analysis of the deposited data

How the results depend on the processing

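The gamma crystallins kept the direction of their difference under each alternative run. For the cluster sum the log2 difference was -3.25 and became -3.03 with FPKM, and ranged from -3.40 to -3.13 with 1 library left out. For Crygn it was -2.25 and became -3.005 at a pseudocount of 0.1 and -1.58 with FPKM (-2.61 to -1.91 with 1 library left out). For Crygs it was -0.23 and became -1.05 at a pseudocount of 0.1 (-0.37 to -0.06 with 1 library left out). Among the single clustered genes, Cryga moved from -4.70 to -6.17 at a pseudocount of 0.1 and to -3.61 with FPKM, Crygb from -3.38 to -6.10 and -2.19, Crygc from -1.94 to -3.25 and -1.17, Crygd from -2.76 to -3.21 and -2.20, and Cryge from -2.04 to -2.18 and -1.79. The number of genes called, 69, became 44 at a pseudocount of 0.1, 15 with no filter on low values, 127 with FPKM, 110 with a mean-variance trend, and 10 to 37 with 1 library left out, where limma assumes that the lone library of a group varies like the other pair. Other crystallins called, 7, became 2 with no filter and 3 to 4 with 1 library left out. Lens fibre genes called, 0, became 1 (Lim2) at a pseudocount of 0.1.

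With the replicate number as a block, 265 genes were called. That replicate block gave 2 calls among lens fibre genes (Lim2, adjusted p = 0.0236, and Mip, adjusted p = 0.0441, limma) and 1 among the regulators (Sox1, adjusted p = 0.0344, limma), and left 7 other crystallins called. Deviations of same-numbered libraries from their group means had a correlation of 0.126 across 13984 genes, but the labels tie the numbers to no animal, litter or day, and there are only 2 pairs, so the libraries are taken to share only a number. With 2 libraries a group, levels below about 1 TPM rest on little sequence and their differences are imprecise.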
